A study of Gasterosteus aculeatus with 60 samples.

Results

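The genes oxt (ENSGACG00000006569) and avp (ENSGACG00000006670) encode the precursors of the nonapeptide hormones of the three-spined stickleback, a small territorial fish. They are 2 of the 17536 genes counted in this series and were taken by identifier, with earlier results of these data known. Brains came from 30 wild-caught adult males that were defending a nesting territory, and each male gave 1 diencephalon and 1 telencephalon library (60 libraries of poly(A) RNA). Challenged males (labelled Experiment) met a smaller intruder confined to a flask for 5 minutes. Control males met an empty flask for the same time, each paired with a challenged male in the paper. The labels do not give these pairs, so the tests treat the groups as unpaired. Separate males were taken at each of 3 times counted from when the flask went in (30, 60 and 120 minutes). This gives 12 groups of 5 libraries, all from 1 freshwater population. A library is named below by the number of its fish.

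In teleost fish oxt gives isotocin, the counterpart of mammalian oxytocin, and avp gives vasotocin, the counterpart of vasopressin. Both peptides are made mainly by large and small neurosecretory neurons of the preoptic area, which lies where the telencephalon meets the diencephalon, and from there are carried to the pituitary or released within the brain. They are known for roles in water balance, stress, courtship and aggression. In zebrafish and mouse, factors of the Otp and Sim1 families are needed for the formation of these neurons, and in mouse the POU factor Pou3f2 is as well. Both stickleback genes lie on linkage group 13 in the annotation of the study, and a RefSeq assembly of the species places avp on chromosome 13 between ubox5 and ccl27a.

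The libraries held 17705327 to 55299804 reads assigned to genes, with medians of 30656239.5 in the diencephalon and 30159568.5 in the telencephalon. Levels are in cpm (reads of a gene relative to the library total) after TMM normalization, a scaling that evens out library composition. The region labels fitted nearly all listed markers of each region. All 8 telencephalic factors of a fixed list were higher in telencephalon (edgeR, adjusted p under 0.1), against 37.8% of all genes. All 10 dorsal diencephalic and midbrain factors of another list were higher in diencephalon, against 35.1% of all genes. Of 7 hypothalamic factors, 6 were higher in diencephalon and nkx2.1 was higher in telencephalon. The lists were chosen with earlier results of these data known. However, 4 telencephalon libraries stood apart. The summed dorsal factors, which include irx1a, irx3a and pax7a, were at 37.9 cpm in fish 1, 73.3 cpm in fish 9, 26.5 cpm in fish 12 and 38.1 cpm in fish 38, against 0.822 to 5.49 cpm in the other 26 telencephalon libraries. Results that rest on these fish are therefore also given without them.

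Both nonapeptide genes were at over 100 cpm in most diencephalon libraries, and their levels spread much more widely between males in the telencephalon. In the diencephalon oxt had a lowest level of 8.94 cpm, a median of 269 cpm and a highest level of 467 cpm over 30 males, and 26 libraries held 100 cpm or more. Diencephalic avp had a lowest level of 5.20 cpm, a median of 193 cpm and a highest level of 291 cpm. Fish 9 was the lowest library for both genes, far below the next lowest (oxt at 56.1 cpm and avp at 41.7 cpm, both in fish 18). In the telencephalon oxt had a lowest level of 0.116 cpm, a median of 1.39 cpm and a highest level of 861 cpm. Of the 30 telencephalon libraries, 13 were under 1 cpm for oxt, 10 were at 10 cpm or more and 5 were at 100 cpm or more. Telencephalic avp had a lowest level of 1.33 cpm, a median of 4.61 cpm and a highest level of 418 cpm, with 10 libraries at 10 cpm or more and 4 at 100 cpm or more. Over all 30 telencephalon libraries the largest step between neighbours was 1.30 log2 units for oxt, between 16.5 and 40.7 cpm. For avp it was 1.62 log2 units, between 14.3 and 44.1 cpm. Steps were wider within a treatment, at 2.70 log2 units for oxt and 3.32 for avp in challenged males. In control males they were 1.98 and 2.59 log2 units. Fewer libraries (15 per treatment) leave wider steps by themselves, so no sharper separation within a treatment is read from these values. In bulk tissue, fewer cells of a type and less RNA per cell cannot be told apart.

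**Figure D1:**
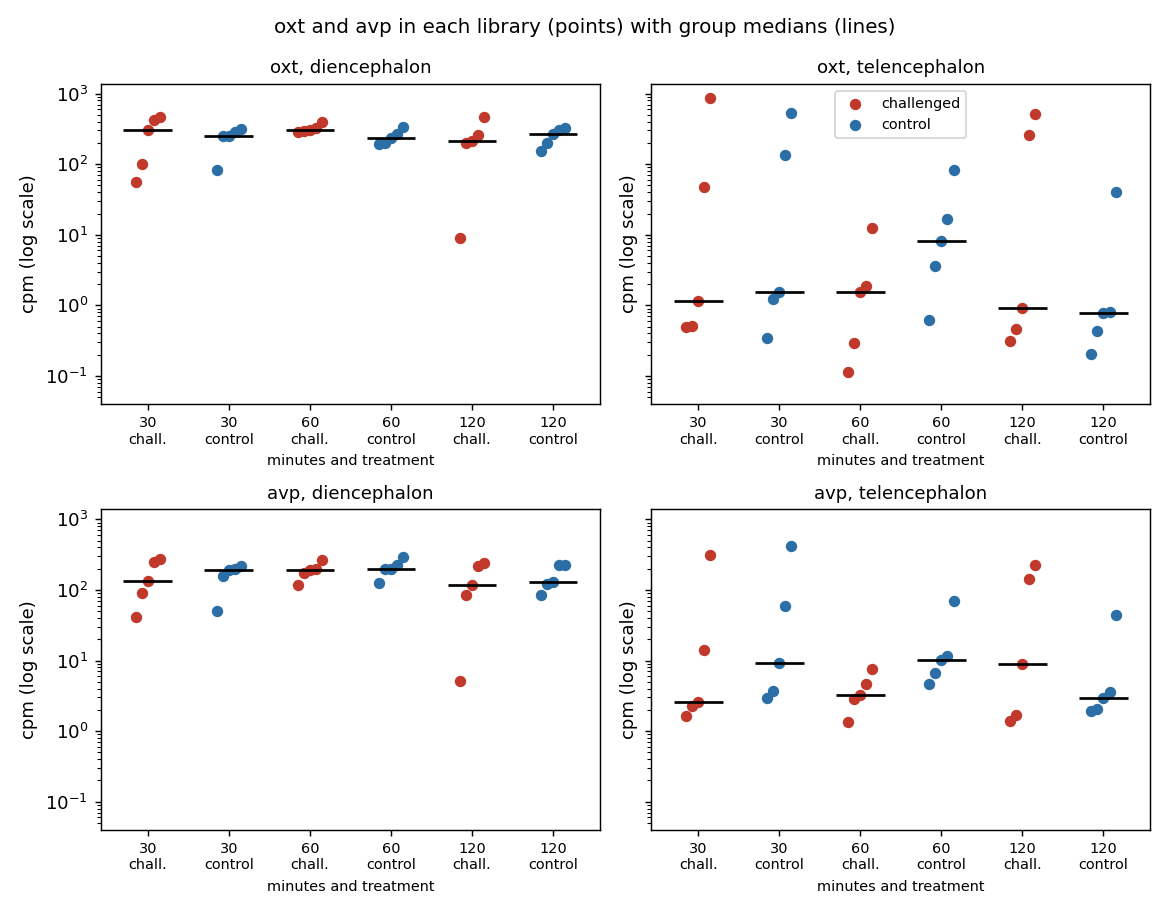
Level of oxt (upper panels) and avp (lower panels) in cpm on a log scale, for each minute and treatment group in diencephalon (left) and telencephalon (right). Each point is 1 library (5 per group) and each line is the group median. Diencephalic values mostly sat between 100 and 467 cpm for oxt, whereas telencephalic oxt spread from 0.116 to 861 cpm within and across groups.

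The spread between males of the same group was measured as the SD of log2 cpm around group means. For telencephalic oxt this SD was 3.86, the highest of the 16651 genes with a mean of at least 1 cpm in that region, where the median gene had an SD of 0.19. For telencephalic avp it was 2.49, rank 21 from the top. Without the 4 fish whose telencephalon held dorsal factors, the SD was 3.18 for oxt (rank 5 of 16621) and 1.89 for avp (rank 112). In the diencephalon the SD was 1.14 for oxt and 1.14 for avp, ranks 337 and 332 of 16926 genes, and it was 0.62 for oxt and 0.67 for avp without those 4 fish.

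The first comparison asked how the 2 genes differ between brain regions. Both were higher in diencephalon than in telencephalon. In a model of all 12 groups the difference was 2.81 log2 units for oxt (SE 0.61, edgeR quasi-likelihood adjusted p = 6.79e-05) and 2.60 log2 units for avp (SE 0.48, edgeR adjusted p = 4.68e-06). Region differences were common, as 72.9% of all genes were called in either direction and 35.1% higher in diencephalon, but the sizes put oxt at the 98.8th percentile and avp at the 98.5th percentile of log2 differences over all genes. With the fish as a block the difference was 5.39 log2 units for oxt (SE 0.88, edgeR adjusted p = 3.28e-06) and 4.14 log2 units for avp (SE 0.60, edgeR adjusted p = 4.26e-07). In the 26 males without dorsal factors in the telencephalon the unblocked difference was 3.99 log2 units for oxt and 3.81 log2 units for avp.

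Within males, oxt was higher in diencephalon in 26 of 30 fish, and the same 26 fish had higher avp there. The within-fish difference in log2 cpm averaged 5.68 ± 4.38 for oxt (SD, n = 30) and 4.00 ± 3.07 for avp (SD, n = 30). Both had a sign-flip permutation p of 1e-05, the smallest that 100000 permutations can give. The other 4 males had more of both genes in telencephalon. Fish 9, a challenged male at 120 minutes, had oxt at 8.94 cpm in diencephalon and 510 cpm in telencephalon, so that 98.3% of the oxt cpm summed over its 2 libraries was telencephalic. Fish 38, a challenged male at 30 minutes, had oxt at 99.8 cpm in diencephalon and 861 cpm in telencephalon. Fish 12, a control male at 30 minutes, had oxt at 82.9 cpm in diencephalon and 534 cpm in telencephalon. These 3 males were among the 4 with dorsal factors in the telencephalon, whereas the fourth of those, fish 1, had oxt at 466 cpm in diencephalon and 0.460 cpm in telencephalon. In fish 13, a challenged male at 120 minutes with 3.78 cpm of dorsal factors in telencephalon, both regions were alike (oxt at 213 cpm in diencephalon and 259 cpm in telencephalon). For avp the same males stood out. Fish 9 had avp at 5.20 cpm in diencephalon and 227 cpm in telencephalon. Fish 12 had avp at 49.5 cpm in diencephalon and 418 cpm in telencephalon. In the 26 males without dorsal factors there, the within-fish difference was 6.63 ± 3.07 for oxt (SD, n = 26) and 4.83 ± 1.81 for avp (SD, n = 26), positive in 25 of 26 fish for each gene.

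**Figure D2:**
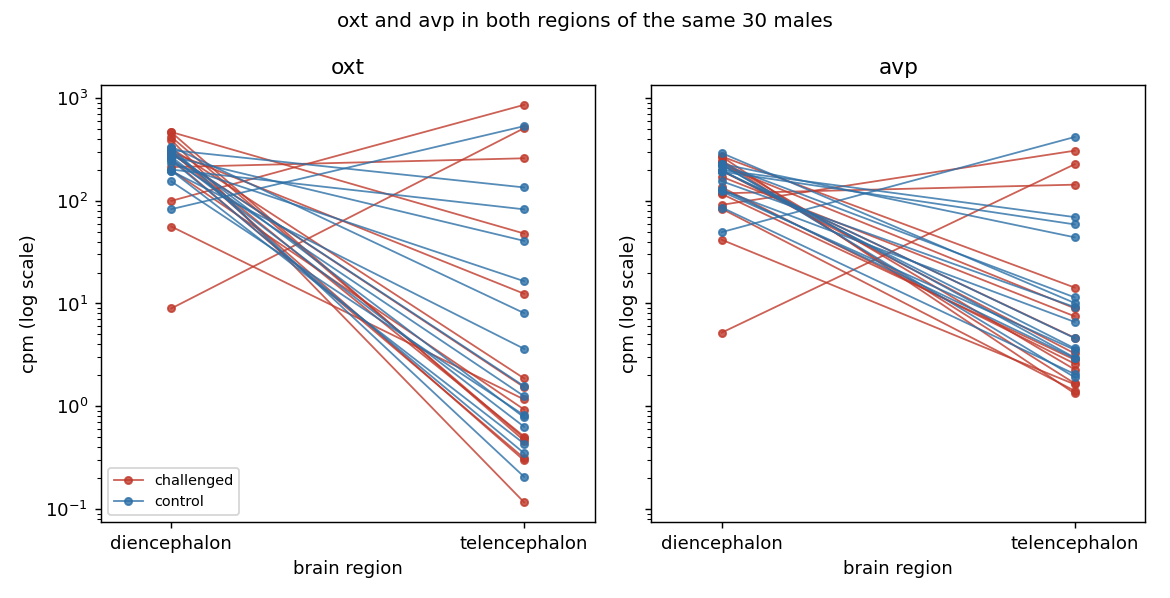
Level of oxt (left panel) and avp (right panel) in cpm on a log scale in diencephalon and telencephalon. Each line joins the 2 libraries of 1 male, coloured by treatment (30 males). In 26 males the line falls from left to right for both genes, and in fish 9, 12, 13 and 38 it climbs.

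The region difference was not called in each group. The oxt difference was called in challenged males at 60 minutes (6.53 log2 units, SE 1.81, edgeR adjusted p = 0.00283), in control males at 60 minutes (3.50 log2 units, SE 1.54, edgeR adjusted p = 0.0673) and in control males at 120 minutes (4.87 log2 units, SE 1.66, edgeR adjusted p = 0.0158). It was not called in challenged males at 30 minutes (0.57 log2 units, SE 1.38), control males at 30 minutes (0.82 log2 units, SE 1.39) or challenged males at 120 minutes (0.57 log2 units, SE 1.38), the groups that held fish 38, fish 12 and fish 9. The avp difference was called in the same 3 groups, at 5.57 log2 units (SE 1.38), 3.37 log2 units (SE 1.21) and 3.87 log2 units (SE 1.25). The share of all genes called higher in diencephalon in challenged and control males was 19.5% and 21.1% at 30 minutes, 21.2% and 23.5% at 60 minutes, and 21.6% and 21.4% at 120 minutes.

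The second comparison asked whether a territorial challenge changed either gene at any time. Neither gene passed the test in either region at any time, and 0% of genes were called in each of these 6 comparisons by edgeR's quasi-likelihood test. At an unadjusted p under 0.05 the diencephalon had 572 genes (3.28%), 1825 (10.5%) and 1034 (5.93%) from the earliest time to the latest, and the telencephalon had 714 (4.14%), 2127 (12.3%) and 686 (3.98%). By DESeq2 the calls at the 3 times numbered 7, 76 and 26 for diencephalon and 47, 93 and 7 for telencephalon, without oxt or avp.

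In the diencephalon at 30 minutes, oxt was at 56.1, 99.8, 301, 419 and 467 cpm in challenged males, against 82.9, 249, 255, 287 and 312 cpm in control males. The groups overlapped, with 1 challenged male below and 2 above the control range. The difference was 0.18 log2 units (SE 0.55, edgeR adjusted p = 0.988). At 60 minutes, oxt was at 287, 298, 302, 324 and 391.5 cpm in challenged males, against 195, 201.4, 232, 269 and 337 cpm in control males. All 5 challenged males were above the control median and only 1 control male reached into their range. The difference was 0.38 log2 units (SE 0.55, edgeR adjusted p = 0.963), and an exact permutation test of log2 cpm on these 10 libraries gave p = 0.0635 and 0.381 after adjustment over 12 such tests, where the smallest possible p is 0.00794. At 120 minutes, oxt was at 8.94, 199, 213, 256 and 466 cpm in challenged males, against 154, 197, 270, 305 and 329 cpm in control males. The lowest value was that of fish 9, and the other 4 challenged males overlapped with the control males. The difference was -0.13 log2 units (SE 0.55, edgeR adjusted p = 0.991).

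Diencephalic avp at 30 minutes was at 41.7, 91.4, 135, 246 and 270 cpm in challenged males, against 49.5, 155, 192, 197 and 220 cpm in control males. The ranges overlapped almost entirely and the difference was -0.05 log2 units (SE 0.55, edgeR adjusted p = 0.998). At 60 minutes, avp was at 116, 171, 194, 197 and 270 cpm in challenged males, against 127, 196, 199, 227 and 291 cpm in control males. These groups overlapped as well, with a difference of -0.14 log2 units (SE 0.55, edgeR adjusted p = 0.991). At 120 minutes, avp was at 5.20, 83.5, 118, 221 and 240 cpm in challenged males, against 86.0, 123, 130, 227 and 229 cpm in control males. The lowest challenged male was again fish 9, and the difference was -0.25 log2 units (SE 0.55, edgeR adjusted p = 0.981).

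In the telencephalon at 30 minutes, oxt was at 0.487, 0.505, 1.16, 48.0 and 861 cpm in challenged males, against 0.348, 1.25, 1.56, 135 and 534 cpm in control males. Each group had 3 males near 1 cpm and 2 males that were far higher, and the difference was 0.42 log2 units (SE 1.84, edgeR adjusted p = 0.992). At 60 minutes, oxt was at 0.116, 0.296, 1.53, 1.86 and 12.4 cpm in challenged males, against 0.629, 3.62, 8.05, 16.5 and 82.5 cpm in control males. Of the 5 challenged males, 4 were under the control median, and the difference was -2.71 log2 units (SE 2.11, edgeR adjusted p = 0.883). At 120 minutes, oxt was at 0.311, 0.460, 0.926, 259 and 510 cpm in challenged males, against 0.205, 0.430, 0.777, 0.814 and 40.7 cpm in control males. The difference of 4.17 log2 units (SE 2.13, edgeR adjusted p = 0.772) rested on fish 9 and fish 13, as the other 3 challenged males lay within the control range. It was 2.91 log2 units without fish 9 and 8.17 log2 units without control fish 10, and was called in neither case.

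Telencephalic avp at 30 minutes was at 1.63, 2.27, 2.59, 14.3 and 308 cpm in challenged males, against 2.97, 3.65, 9.22, 58.9 and 418 cpm in control males. The groups overlapped, with a difference of -0.60 log2 units (SE 1.42, edgeR adjusted p = 0.982). At 60 minutes, avp was at 1.33, 2.84, 3.26, 4.63 and 7.50 cpm in challenged males, against 4.59, 6.60, 10.1, 11.5 and 69.4 cpm in control males. No challenged male reached the control median, but the ranges overlapped. The difference was -2.37 log2 units (SE 1.59, edgeR adjusted p = 0.848), and the exact permutation test of log2 cpm gave p = 0.0397, or 0.381 after adjustment over the 12 tests. At 120 minutes, avp was at 1.41, 1.67, 8.97, 144 and 227 cpm in challenged males, against 1.91, 2.05, 2.93, 3.54 and 44.1 cpm in control males. The 2 highest challenged males were fish 9 and fish 13, and the difference was 2.81 log2 units (SE 1.55, edgeR adjusted p = 0.798).

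The telencephalic differences at 60 and 120 minutes ran in opposite directions for both genes. Nevertheless, the test of whether the challenge effect differed between times did not pass for oxt (edgeR adjusted p = 0.594) or avp (edgeR adjusted p = 0.578), nor did the joint test of an effect at any time (edgeR adjusted p = 0.771 for oxt and 0.767 for avp). In the diencephalon the adjusted p of these tests was 0.968 or more. A difference in challenge effect between regions did not pass the test either. At 120 minutes the diencephalic effect minus the telencephalic effect was -4.31 log2 units for oxt (SE 2.08, edgeR adjusted p = 1.00) and -3.06 log2 units for avp (SE 1.61, edgeR adjusted p = 1.00), with 0% of genes called. With the fish as a block these were -2.28 log2 units for oxt and -2.001 log2 units for avp. The paper, in contrast, places oxt and avp in a telencephalic cluster of genes with a time-by-treatment effect (edgeR generalized linear model, adjusted p under 0.1). For that effect the quasi-likelihood test used here called 0% of genes in telencephalon. With edgeR's likelihood ratio test as an alternative, oxt and avp were also not called for it (adjusted p of 0.482 or more). The source of this difference in calls was not tested further.

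Ranked by mean log2 cpm, diencephalic oxt was highest in challenged males at 60 minutes (8.32), then in control males at 60 minutes (7.92), 120 minutes (7.92) and 30 minutes (7.76), and lowest in challenged males at 30 minutes (7.65) and 120 minutes (7.08). Diencephalic avp was highest in control males at 60 minutes (7.65) and lowest in challenged males at 120 minutes (6.27). Telencephalic oxt was highest in control males at 30 minutes (3.19) and lowest in challenged males at 60 minutes (0.26). At 30 minutes the direction of the oxt difference depended on the measure. Mean log2 cpm was lower in challenged males in diencephalon (7.65, against 7.76 in control males) and in telencephalon (2.79, against 3.19 in control males), whereas the edgeR differences given above were positive. Telencephalic avp was also highest in control males at 30 minutes (4.26) and lowest in challenged males at 60 minutes (1.78). The differences between neighbours in these 4 orders ranged from 0.00 to 2.39 log2 units, and each of the 20 pairs of neighbouring groups overlapped between males.

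The third comparison asked how the 2 genes vary together across fish. In both regions males with high oxt had high avp. Over the 30 males, log2 cpm of the 2 genes had a Pearson r of 0.93 in diencephalon (permutation adjusted p = 2.0e-05 over 4 correlations) and 0.94 in telencephalon (permutation adjusted p = 2.0e-05). Spearman's rho was 0.65 in diencephalon (permutation adjusted p = 5.0e-04) and 0.82 in telencephalon (permutation adjusted p = 4.0e-05). Diencephalic r was 0.72 without fish 9 and fish 18, the 2 farthest from the median. Among control males alone diencephalic r was 0.70 and rho was 0.44, with a permutation adjusted p of 0.200 for rho. In the 10 males of each time, diencephalic r was 0.95, 0.32 and 0.95 from the earliest time to the latest. In the telencephalon r was 0.92 without the 2 farthest males (fish 12 and fish 38), and 0.96, 0.88 and 0.96 at the 3 times. Among the 26 males without dorsal factors, r was 0.74 in diencephalon and 0.93 in telencephalon.

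**Figure D3:**
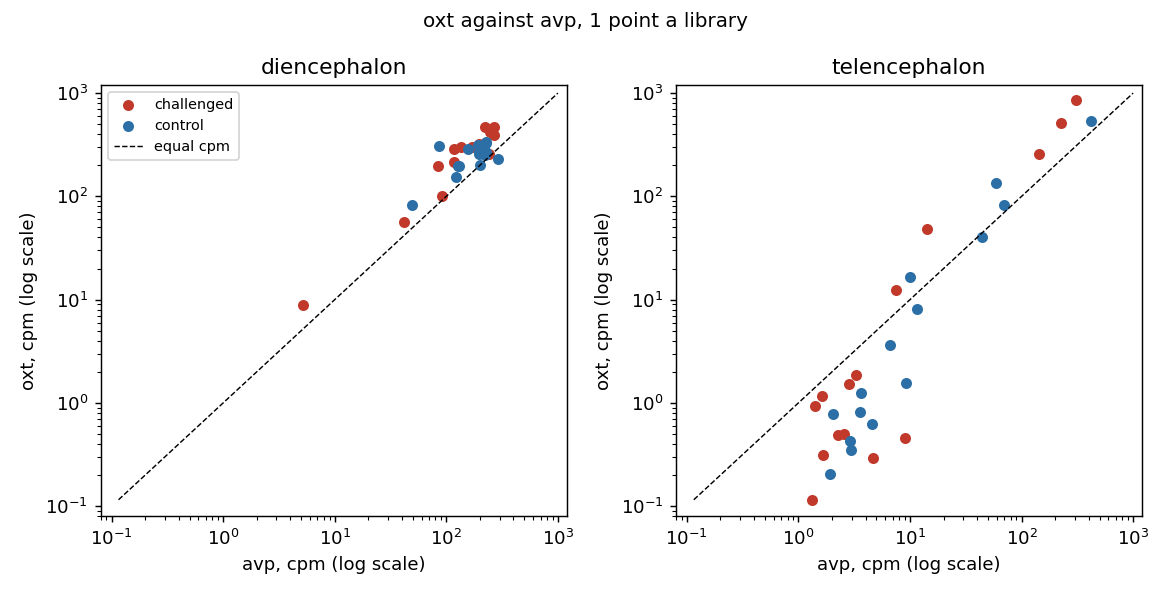
Level of oxt against avp in cpm, both on log scales, in diencephalon (left) and telencephalon (right). Each point is 1 library, coloured by treatment (30 males per panel), and the dashed line marks equal cpm of the 2 genes, which are not corrected for gene length. Pearson r of log2 cpm was 0.93 in diencephalon and 0.94 in telencephalon, and the telencephalic points cross the dashed line.

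Between regions, the males with more of a gene in the telencephalon tended to have less of it in the diencephalon, but this rested on few fish. Diencephalic against telencephalic oxt had an r of -0.48 (permutation adjusted p = 0.00796) and a rho of -0.37 (permutation adjusted p = 0.0619). For avp r was -0.39 (permutation adjusted p = 0.0328) and rho was -0.09 (permutation adjusted p = 0.654). Without fish 9 and fish 18, r was -0.50 for oxt and -0.33 for avp, and the avp value no longer passed the test (permutation adjusted p = 0.0876). With fish 9 alone left out, r was -0.35 for oxt and -0.18 for avp, and with fish 12 alone left out it was -0.32 for avp, none of which passed the test. Among the 26 males without dorsal factors in the telencephalon the relation did not hold, as r was 0.01 for oxt (permutation adjusted p = 0.960) and 0.21 for avp (permutation adjusted p = 0.390).

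The proportion of the 2 transcripts was not constant. The log2 ratio of oxt to avp counts, which is not corrected for gene length and so is compared only between libraries, averaged 0.63 ± 0.43 in diencephalon and -1.11 ± 1.71 in telencephalon (SD, n = 30 each). Within males the ratio was higher in diencephalon by 1.74 ± 1.81 log2 units (SD, n = 30 fish), and in 23 of 30 fish (sign-flip permutation p = 3.0e-05). In telencephalon it spanned -4.22 in fish 1, where oxt had only 10 counts, to 1.75 in fish 23. The telencephalic ratio was above 0 in 9 libraries, which were all among the 10 libraries with oxt at 10 cpm or more. In the tenth, control fish 10 at 120 minutes, it was -0.12. The ratio of these 10 libraries, from -0.12 to 1.75, lay within the diencephalic range of -0.33 to 1.83. They were picked by oxt, the numerator of the ratio, which favours high ratios. Control fish 35, with avp at 11.5 cpm but oxt at 8.05 cpm in telencephalon, had a ratio of -0.51, below that range. Of the challenge differences in the ratio, the one with the smallest p was in diencephalon at 60 minutes, where the ratio averaged 0.80 in challenged males and 0.26 in control males (exact permutation p = 0.0317, and 0.190 after adjustment over 6 tests, n = 5 each), with all 5 challenged males above the control median.

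Among all genes with a mean of at least 1 cpm, each nonapeptide gene was the one most like the other across fish, after removal of group means. In telencephalon avp was first of 16650 genes for oxt (r = 0.94), and oxt was first for avp. In diencephalon avp was first of 16925 genes for oxt (r = 0.93) and oxt was first for avp. Without the 4 fish with dorsal factors avp was second for diencephalic oxt (r = 0.76) and the other 3 ranks were still first. The next named genes for telencephalic oxt were OTP (r = 0.81), a homeobox factor of neuroendocrine preoptic and hypothalamic neurons, and lhx1b (r = 0.79), a LIM homeobox factor. For telencephalic avp it was lhx1b (r = 0.84), while OTP was only rank 31 (r = 0.80). High likeness was not rare in telencephalon, where 86 genes had an r over 0.7 with oxt and 142 with avp. In the diencephalon gsc, a goosecoid homeobox factor, was rank 2 for oxt (r = 0.90) and rank 3 for avp (r = 0.83), and it was at a median of only 1.59 cpm. The remaining places in the 4 lists of 5 genes went to genes without a symbol in the study's tables. Only 1789 of the 17536 counted genes had a symbol there. These r values are over 30 libraries and were picked as the highest of many, so they carry no test.

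Markers of the preoptic area moved with both genes in the telencephalon. The 4 preoptic factors measured were OTP, otpa, sim1b and pou3f2a. All 4 were called higher in diencephalon than in telencephalon (1.79 to 2.79 log2 units), against 35.1% of all genes. In diencephalon the 4 factors summed to 23.2 cpm at the lowest, a median of 38.7 cpm and 48.3 cpm at the highest. In telencephalon these values were 2.22, 5.39 and 33.4 cpm. The highest telencephalic sums were in fish 38 (33.4 cpm), fish 12 (27.7 cpm), fish 9 (20.4 cpm) and fish 13 (16.5 cpm), which were also the 4 highest telencephalon libraries for oxt and for avp. Of the 4 factors, sim1b was at 0 in 1 telencephalon library and the others were detected in each library. Across the 30 telencephalon libraries the log2 sum had an r of 0.84 with oxt (rho 0.71) and 0.88 with avp (rho 0.75), with a permutation adjusted p of 1.6e-04 for each r over 32 such relations. Without the 2 farthest males r was 0.77 for oxt and 0.82 for avp, and without the 4 fish with dorsal factors it was 0.74 for oxt and 0.77 for avp. All 4 factors had a positive r with each gene. The relation was not particular to preoptic factors. The summed hypothalamic factors had an r of 0.55 with oxt (permutation adjusted p = 0.00603) and 0.57 with avp (permutation adjusted p = 0.00544). By rank, rho was 0.51 with oxt (permutation adjusted p = 0.0380) and 0.43 with avp (permutation adjusted p = 0.0823). All 7 of them had a positive r with each gene, but some were close to the -0.01 of the median gene after removal of group means. For nkx2.1 r was 0.07 with oxt and 0.04 with avp, and for rx3 it was 0.08 and 0.02. Without the 4 fish with dorsal factors the r of the hypothalamic sum was 0.28 with oxt and 0.23 with avp.

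**Figure D4:**
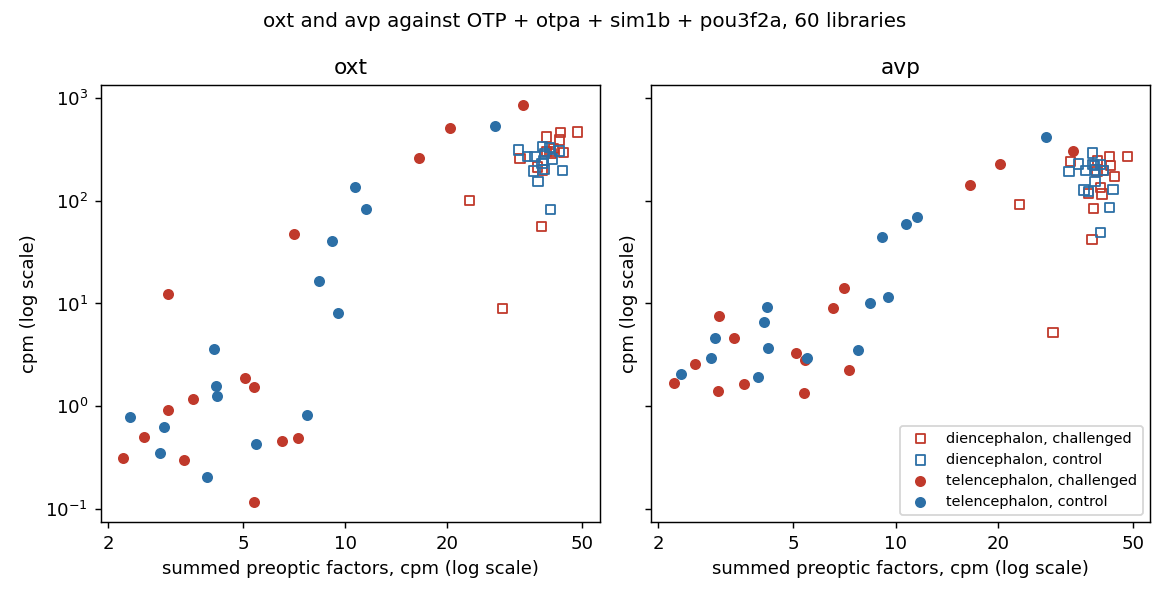
Level of oxt (left) and avp (right) against the summed level of 4 preoptic transcription factors, all in cpm on log scales. Squares are diencephalon and circles are telencephalon libraries, coloured by treatment (60 libraries). The telencephalon libraries of fish 38, 12, 9 and 13, with 16.5 to 33.4 cpm of the factors, held the highest telencephalic levels of both genes.

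In the diencephalon the relation with the summed preoptic factors was weaker, but single factors differed. There OTP, otpa, sim1b and pou3f2a had an r of 0.48, 0.39, 0.78 and 0.19 with oxt, and of 0.36, 0.27, 0.66 and 0.02 with avp. For sim1b the r with oxt was 0.78 in telencephalon as well. The log2 sum had an r of 0.54 with oxt (permutation adjusted p = 0.0557) and a rho of 0.51 (permutation adjusted p = 0.0380). With avp r was 0.39 (permutation adjusted p = 0.116) and rho was 0.20 (permutation adjusted p = 0.536). Without the 4 fish with dorsal factors r was 0.30 for oxt and 0.015 for avp. Diencephalic sums were low in fish 38 (23.2 cpm) and fish 9 (29.1 cpm), but not in fish 12 (40.2 cpm) or fish 18 (37.9 cpm), the other males with low diencephalic oxt. The diencephalon library of fish 12 also held the most pituitary transcripts (6589 cpm summed over 8 genes, against a median of 5.01 cpm), while fish 9 held 2.68 cpm, fish 18 held 5.88 cpm and fish 38 held 4.79 cpm. Most telencephalic factors ran the other way in the telencephalon. Their sum had an r of -0.59 with oxt and -0.62 with avp (permutation adjusted p = 0.00198 for each). By rank it did not pass, with a rho of -0.43 for oxt and -0.46 for avp (permutation adjusted p = 0.0823 and 0.0652). Of the 8 factors, dlx1a had an r of 0.02 with oxt and 0.06 with avp, and dlx2a -0.08 and -0.07. In the diencephalon 7 of the 8 had a positive r with each gene, such as 0.71 for dlx1a with oxt. The sum in telencephalon was lowest in fish 38 (535 cpm) and fish 9 (639 cpm) against a median of 903 cpm. Without the 4 fish with dorsal factors its r was -0.24 for each gene. For dorsal factors r was 0.54 with telencephalic oxt and 0.68 with avp, and 0.30 and 0.39 without those fish. Several of these dorsal factors share a cluster with oxt and avp in the paper, drawn from these same libraries, so this r is not independent of it. The part of tissue boundaries in the spread of oxt and avp was not tested.

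With the log2 sum of preoptic factors added to the model, the challenge difference in telencephalon was 0.12, 1.22 and 0.84 log2 units for oxt at the 3 times, with SEs of 1.08, 1.27 and 1.26. For avp it was -1.06, -0.27 and 0.61 log2 units at these times, with SEs of 0.65, 0.69 and 0.67. The direction of the oxt difference at 60 minutes was thus reversed, and none was called (edgeR adjusted p = 0.898 or more). Without the 4 fish with dorsal factors the oxt difference was -1.46, -2.73 and 3.32 log2 units at the 3 times, with none called.

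Other genes of neurosecretion and behaviour were counted from fixed lists. By edgeR's quasi-likelihood test none of the listed genes was called for a challenge effect in either region at any time, as was true of all genes by that test. At an unadjusted p under 0.05, all 10 dorsal factors were higher in the telencephalon of challenged males at 120 minutes, against 3.98% of all genes in either direction. Their median was 3.68 log2 units, against 0.01 over all genes. In this comparison oxt and avp differed by 4.17 and 2.81 log2 units. The dorsal difference rested on fish 1 and fish 9 of that challenged group, with 37.9 and 73.3 cpm of summed dorsal factors. The other challenged males of the group had 0.822 to 3.78 cpm, against 0.936 to 3.73 cpm in control males. The 10 factors are thus not 10 separate results. Without the 4 fish with dorsal factors the differences were 3.32 log2 units for oxt and 2.14 log2 units for avp. The paper places pax7a, pax7b, irx2a, irx3a, irx5a, DMBX1 and pou4f2 in the same telencephalic cluster as oxt and avp. That cluster was drawn by time course from these same libraries, so the shared direction is no separate support. Of 10 activity-induced genes, 7 were higher in challenged telencephalon at 30 minutes at that p (median 0.40 log2 units), against 4.14% of all genes in either direction. There it was 0 at 60 and 120 minutes, and in diencephalon 2, 2 and 1 at the 3 times. Of 8 pituitary genes, 7 were lower in challenged diencephalon at 30 minutes at that p (median -5.75 log2 units), against 3.28% of all genes. At 60 minutes it was 0, and at 120 minutes 5 were lower. At 30 minutes, control fish 12 held 6589 cpm of these genes, while median sums were 5.88 cpm in challenged and 5.24 cpm in control males. At 120 minutes, control fish 32 held 1028 cpm and control fish 10 held 64.7 cpm. Median sums at that time were 3.92 cpm in challenged and 8.70 cpm in control males. Between regions, 35.1% of all genes were called higher in diencephalon and 37.8% higher in telencephalon. Of 7 neurosecretory genes, 2 were higher in diencephalon, including crhbp (1 of 2), a binding protein of corticotropin-releasing hormone (1.09 log2 units, SE 0.15), and 5 were higher in telencephalon, including sst3, a somatostatin-family precursor (-2.89 log2 units, SE 0.08). The 4 steroid receptors were all higher in telencephalon, with the androgen receptor gene ar at -1.44 log2 units (SE 0.06). Of 7 hypothalamic factors, 6 were higher in diencephalon, including rx3 at 5.56 log2 units (SE 0.30), and nkx2.1 was higher in telencephalon (-1.61 log2 units, SE 0.09). Of 10 activity-induced genes, 9 were higher in telencephalon, and their summed level had an r of -0.05 with oxt and -0.20 with avp in telencephalon (permutation adjusted p = 0.860 and 0.439).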

How the data were processed

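Poly(A) RNA from the 2 dissected regions of each male was sequenced as 100-base single reads from a strand-marking kit. The authors aligned reads to the stickleback genome of an Ensembl release (TopHat version 2.0.8, with Bowtie version 2.1.0) and counted them per gene with HTSeq 0.6.1, leaving out reads in several genes. The deposited values used here are raw counts per gene. A deposited table of normalized values was not used. Whether HTSeq used strand is not given in the sources used here. Gene symbols came from the study's tables, which name 1789 genes.

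Genes that reached 1 cpm in 2 or more libraries were normalized by TMM and tested with edgeR 4.0.16 (quasi-likelihood F-test, R 4.3.3). Challenge effects came from a model per region with p-values adjusted over all genes and the 6 comparisons (Benjamini-Hochberg, threshold 0.1), and region effects from a model of 12 groups. Fold differences are challenged minus control or diencephalon minus telencephalon. Their SE is approximate, derived from the test as the absolute log2 difference divided by the square root of F. Libraries of the same fish share a number, which marks the same animal. Their deviations from group means correlated in each of 30 fish (mean r = 0.56, lowest 0.22), so fits with the fish as a block are given. Log2 cpm used a prior count of 2. The count ratio used 0.5 added counts. Correlations and sign-flip tests used 100000 permutations (scipy 1.17.1, threshold 0.05 for correlations).

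Libraries of a group differed by more than counting error and each came from its own fish. Alternatives were DESeq2 1.42.0, a likelihood ratio test, RLE normalization, other filters and prior counts, and leaving out each fish. The models with preoptic factors and the fits without 4 fish were chosen after seeing the data. The members and lists were chosen with earlier results of these data known. Named genes were the members, listed genes and the 5 genes most alike to each member in each region. No batch was given in the labels.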

Additional observations from a re-analysis of the deposited data

Results flagged for a closer look

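In 6 of the 24 combinations of gene and group, 1 library stood far from the other 4 by a gap test on log2 cpm, where chance flags about 1 in 20. These 6 came from 3 fish, each for both genes. Control fish 12 at 30 minutes was the lowest diencephalon library of its group, with oxt at 82.9 cpm and avp at 49.5 cpm. Challenged fish 9 at 120 minutes was the lowest diencephalon library of its group, with oxt at 8.94 cpm and avp at 5.20 cpm. Control fish 10 at 120 minutes was the highest telencephalon library of its group, with oxt at 40.7 cpm and avp at 44.1 cpm. Fish 9 and fish 12 were also high for both genes in telencephalon, whereas other fish with high telencephalic levels, such as fish 38 and fish 13, shared a group with another high male and were not singled out by the test.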

How the results depend on the processing

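The challenge, time and region-by-treatment results of oxt and avp were not called under any alternative run, with a smallest adjusted p of 0.482 over other settings and 0.435 over leaving out 1 fish. Uncalled differences changed sign in few settings. When fish was the replicate block, the region-by-treatment difference of oxt at 30 minutes was 0.25 log2 units, and without the 4 fish with dorsal factors it was 1.64, against -0.25 in all fish. Without those 4 fish the telencephalic oxt difference at 30 minutes was -1.46, and with preoptic factors in the model that at 60 minutes was 1.22. The block changed no call for oxt or avp, but moved the region difference as given above.

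Correlations between regions were the least stable. For avp r was -0.49 in challenged fish only, -0.28 in control fish only, -0.33 without the 2 farthest fish and 0.21 without the 4 fish with dorsal factors. For oxt it was -0.41 in control fish only and 0.011 without those 4 fish. Leaving out 1 fish gave -0.47 to -0.18 for avp and -0.54 to -0.35 for oxt, each highest without fish 9, where neither was called. The avp value was also not called without fish 12 (-0.32).

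Leaving out 1 fish also moved uncalled challenge differences across 0. In diencephalon the range was -0.11 to 0.45 for oxt at 30 minutes, -0.57 to 0.18 for oxt at 120 minutes, -0.34 to 0.20 for avp at 30 minutes, -0.30 to 0.026 for avp at 60 minutes and -0.57 to 0.064 for avp at 120 minutes. In telencephalon at 30 minutes it was -3.43 to 2.397 for oxt and -4.26 to 1.81 for avp, lowest without fish 38 and highest without fish 12. The region-by-treatment difference at 30 minutes ranged from -2.45 to 3.83 for oxt and from -2.12 to 4.37 for avp. The cause was not tested. The region difference ranged from 2.69 to 3.49 log2 units for oxt and from 2.49 to 3.24 for avp and was called each time. With 5 fish per group the SE of telencephalic challenge differences was 1.42 to 2.13 log2 units, so that several-fold differences were not detectable at this spread.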
